A study of Mus musculus with 6 samples.

Results

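Dendritic cell (DC) lineage genes were followed in RNA of sorted macrophages and leukemia cells. They are 10 genes chosen by name, Zbtb46, Itgax, Xcr1, Clec9a, Batf3, Cd209a, Clec4a4, Siglech, Ccr7 and Bst1, of 54532 genes with a deposited value, and all 10 were found. DCs are the cells that take up antigen and present it to T cells. Conventional DCs (cDC) arise in the bone marrow (BM) from progenitors that depend on the growth factor FLT3L, and fall into cDC1, which cross-present antigen to CD8+ T cells, and cDC2, which mainly present antigen to CD4+ T cells. Plasmacytoid DCs (pDC) are the third branch and are known for type I interferon secretion. In the spleen and the BM, DCs lie next to macrophages and share several surface proteins with them, so their genes are a common check of what a macrophage gate holds.

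The study asked how iron overload and acute myeloid leukemia (AML) change macrophages and leukemia cells in mice. Its RNA-seq holds 6 libraries. Each condition is a single library, so there are no replicates and the difference between mice is unknown. All mice were C57BL/6, by the methods 6 to 8 weeks old. WT mice had no leukemia and got PBS. WT/FE mice had no leukemia and were injected 6 times into the peritoneum with iron dextran (0.2 mL at 25 mg/mL), so that the iron came by injection and not by diet. MA9 mice were transplanted with AML cells in which a retrovirus drives the fusion gene MLL-AF9 and GFP, and got PBS. MA9/FE mice carried the same leukemia and got the iron dextran. Macrophages were sorted from all of these groups, by the methods as GFP- Gr-1lo F4/80+ CD115int cells, and leukemia cells from both groups of leukemic mice. Macrophages are labelled as splenic and leukemia cells as BM cells, whereas the methods describe a sort of BM macrophages, and which holds is not known. How many mice went into a library is not given in the sources used here.

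Levels are given as FPKM, a read number divided by both the exon length of the gene and the depth of the library. They were whole multiples of 1 read for all 10 genes, which gave the reads behind each value and a depth of 16085346 to 19518359 reads per library. Intervals in brackets are 95% exact Poisson or binomial intervals of those reads. They cover counting error only. The macrophage libraries held all 17 macrophage markers with at least 10 reads, but the 12 B cell markers summed to more, 1379.9 to 2436 FPKM against 543 to 1203 FPKM. T cell markers (12 genes, 86.2 to 140.1 FPKM) and NK cell markers (8 genes, 111 to 175 FPKM) were also read, none of them at 0. Neutrophil markers summed to 11.5 FPKM in WT and 9.0 FPKM in WT/FE, with 3 of 12 at 0 in each, and to 1850.0 and 939.9 FPKM in MA9 and MA9/FE macrophages. The label macrophages is therefore kept as the name of the libraries. In such bulk samples, fewer cells of a type and less RNA per cell cannot be told apart.

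The start regions of 5 members are shown because these genes stand for the groups described below. Zbtb46 stands for cDC, Itgax for DCs as a whole, Xcr1 for cDC1, Cd209a for cDC2 and Siglech for pDC. Each region runs 5′ to 3′ on the strand of the gene. It spans 250 bases before to 50 bases after the RefSeq start in the mouse genome GRCm38.p6. The promoter set used here held such a sequence for 7 of the 10 members. The regions are chr2:181424339-181424638 on the minus strand for Zbtb46, chr7:128129300-128129599 on the plus strand for Itgax, chr9:123861980-123862279 on the minus strand for Xcr1, chr8:3748935-3749234 on the minus strand for Cd209a and chr7:55767934-55768233 on the plus strand for Siglech. Capitals mark matches, on either strand, to short motifs of factors known in DCs: the PU.1 core GAGGAA, the AP-1 motif TGANTCA bound by BATF with JUN proteins, an IRF motif AANNGAAA and the E-box CAGNTG of E proteins such as TCF4. No match overlapped one of another motif in these 5 sequences.
Zbtb46: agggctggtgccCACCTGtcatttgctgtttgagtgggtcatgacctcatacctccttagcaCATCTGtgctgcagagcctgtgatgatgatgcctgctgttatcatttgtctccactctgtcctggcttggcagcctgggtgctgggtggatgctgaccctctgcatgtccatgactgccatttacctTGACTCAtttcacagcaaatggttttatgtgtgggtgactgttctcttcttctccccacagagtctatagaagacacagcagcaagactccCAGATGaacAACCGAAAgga
Itgax: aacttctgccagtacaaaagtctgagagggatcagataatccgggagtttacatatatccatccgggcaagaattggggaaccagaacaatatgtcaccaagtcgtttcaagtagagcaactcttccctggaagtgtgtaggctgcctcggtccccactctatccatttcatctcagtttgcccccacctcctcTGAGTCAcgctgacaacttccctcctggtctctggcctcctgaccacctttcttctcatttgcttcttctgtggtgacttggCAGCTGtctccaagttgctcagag
Xcr1: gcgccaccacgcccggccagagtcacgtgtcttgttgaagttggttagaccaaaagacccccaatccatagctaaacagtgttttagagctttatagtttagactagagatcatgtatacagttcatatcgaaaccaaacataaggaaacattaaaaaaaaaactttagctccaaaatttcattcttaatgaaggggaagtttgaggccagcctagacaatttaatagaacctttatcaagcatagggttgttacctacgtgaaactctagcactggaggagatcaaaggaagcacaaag
Cd209a: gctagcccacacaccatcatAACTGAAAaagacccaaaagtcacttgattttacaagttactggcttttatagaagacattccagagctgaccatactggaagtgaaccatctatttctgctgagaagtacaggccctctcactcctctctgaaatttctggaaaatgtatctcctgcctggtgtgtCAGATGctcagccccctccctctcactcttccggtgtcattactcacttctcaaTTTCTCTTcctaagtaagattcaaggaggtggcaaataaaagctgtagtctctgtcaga
Siglech: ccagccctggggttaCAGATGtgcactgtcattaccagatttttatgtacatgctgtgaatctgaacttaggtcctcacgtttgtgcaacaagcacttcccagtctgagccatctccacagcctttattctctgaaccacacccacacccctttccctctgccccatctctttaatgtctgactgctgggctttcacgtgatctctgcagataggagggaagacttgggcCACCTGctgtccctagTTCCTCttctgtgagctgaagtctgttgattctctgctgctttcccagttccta
The Zbtb46 region held 1 AP-1 match, 1 IRF match and 3 E-boxes, and the Itgax region held 1 AP-1 match and 1 E-box. The Zbtb46 window lies well inside the gene, whose 5′ end on the minus strand is at chr2:181459426. Its matches are therefore not those of a promoter at that end. The Cd209a region held 2 IRF matches and 1 E-box, the Siglech region held 1 PU.1 core and 2 E-boxes, and in the Xcr1 region no letters matched. Of 32851 mouse promoters of the same length, 28.3% held the PU.1 core, 7.81% the AP-1 motif, 23.9% the IRF motif and 51.4% the E-box. A match describes letters in this window and is not a measured site.

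Zbtb46, a transcription factor of committed cDC, spans chr2:181387762-181459426 (GRCm38, as for all genes here). Macrophages had 15.3 FPKM of it in WT, 13.5 in WT/FE, 12.4 in MA9 mice and 9.4 in MA9/FE mice, against 0.207 and 0.151 FPKM in MA9 and MA9/FE leukemia cells. It was highest in WT and lowest in MA9/FE macrophages, with overlapping intervals in WT/FE and MA9. Itgax (chr7:128129547-128150657) encodes CD11c, the integrin alpha chain carried by DCs and some macrophages. It had the highest level of all members in WT and WT/FE macrophages, with 159 FPKM in WT and 148 FPKM in WT/FE. MA9 macrophages had 109 FPKM and MA9/FE macrophages 88.2 FPKM, and the leukemia cells 5.46 and 4.69 FPKM. Both genes thus stood in the same order over the 4 macrophage libraries, and both were lower in leukemic than in non-leukemic mice. Of the 50-base words in Itgax transcripts, 8.02% also occur in Itgad, an integrin gene next to it, whose level ran otherwise, at 14.2, 27.5, 12.1 and 20.2 FPKM over the same 4 libraries.

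The cDC1 branch had 3 members. Xcr1 (chr9:123852315-123862029) encodes the receptor for the chemokine XCL1 and is a restricted marker of cDC1. In macrophages it had 10.3 FPKM in WT (895 reads), 9.25 in WT/FE (692 reads), 11.7 in MA9 (884 reads) and 10.1 in MA9/FE (722 reads). The intervals of all neighbours in this order overlapped. In leukemia cells it rested on 3 reads in MA9 (0.0371 FPKM, 0.00765 to 0.108) and 2 reads in MA9/FE (0.0252 FPKM, 0.00305 to 0.0909). Clec9a (chr6:129408862-129424763), the receptor with which cDC1 sense the actin of dead cells, had macrophage levels of 28.7 FPKM in WT, 31.5 in WT/FE, 26.1 in MA9 mice and 25.5 in MA9/FE mice. WT, MA9 and MA9/FE lay close together, with intervals that overlapped between neighbours, and WT/FE lay above them. Leukemia cells had 1.57 and 2.14 FPKM of Clec9a, and 4.02% of its 50-base words occur in Clec1b, which overlaps it and was read at 0.187 to 4.12 FPKM over the 6 libraries. Batf3 (chr1:191097847-191108945), a transcription factor without which cDC1 do not form, had macrophage levels of 47.0 FPKM in WT, 39.8 in WT/FE, 32.1 in MA9 mice and 38.1 in MA9/FE mice. It was lowest in MA9 macrophages, while WT/FE and MA9/FE had overlapping intervals, and leukemia cells had 0.414 and 0.666 FPKM.

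The cDC2 branch had Cd209a and Clec4a4. Cd209a (chr8:3743397-3748984) encodes a C-type lectin of the DC-SIGN family found on cDC2 and on DCs that arise from monocytes. It had 39.0 FPKM in WT (1204 reads), 30.6 in WT/FE (814 reads), 12.8 in MA9 (345 reads) and 24.7 in MA9/FE macrophages (630 reads). MA9 macrophages were far below the others, and the highest of the 4 values was 3.04 times the lowest, the widest span of any member in macrophages. Leukemia cells had 0.731 and 0.920 FPKM. No 50-base word of Cd209a occurs in another gene, and its family members were low: Cd209b had 71, 41, 13 and 42 reads, Cd209c 39, 47, 10 and 41, and Cd209d 39, 22, 34 and 24 in the same order. Cd209b and Cd209c were thus also lowest in MA9 macrophages, and Cd209d was not. Clec4a4 (chr6:122990367-123024105), the inhibitory lectin DCIR2 of splenic cDC2, had macrophage levels of 59.2 FPKM in WT, 50.3 in WT/FE, 37.8 in MA9 mice and 42.3 in MA9/FE mice. Its lower pair was that of the leukemic mice, with intervals that overlapped each other, and leukemia cells held 2 reads of it in each library (0.142 and 0.144 FPKM). Clec4a4 shares 15.7% of its 50-base words with Clec4a2, so part of its reads could be split between them. Clec4a2 itself had 9.23, 9.26, 6.25 and 10.4 FPKM in macrophages and 18.5 and 14.0 FPKM in leukemia cells.

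Siglech (chr7:55768178-55778925), the sialic acid binding receptor that marks pDC and some tissue macrophages, had macrophage levels of 8.68 FPKM in WT, 7.07 in WT/FE, 12.4 in MA9 mice and 7.13 in MA9/FE mice. MA9 stood above the other 3, and WT/FE and MA9/FE had overlapping intervals. In leukemia cells it had 0.635 and 0.513 FPKM. Ccr7 (chr11:99144196-99155077), the chemokine receptor that leads mature DCs to lymph nodes and is also carried by T cells and B cells, had macrophage levels of 129.6 FPKM in WT, 110.3 in WT/FE, 142 in MA9 mice and 117 in MA9/FE mice. Both libraries with iron were below both without it, and leukemia cells had 1.81 and 2.10 FPKM. Bst1 (chr5:43818885-43843986), an ectoenzyme of NAD metabolism (CD157) found on myeloid and stromal cells, differed from all others. It had 1.14, 1.33, 1.70 and 1.39 FPKM in the macrophages and 1.25 and 1.47 FPKM in the leukemia cells, from 74 to 96 reads per library, and the intervals of all neighbours in its order overlapped. It overlaps Fbxl5, which had 6.66 to 10.5 FPKM over the 6 libraries, and whether strand was used in counting is not given in the sources used here.

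**Figure D1:**
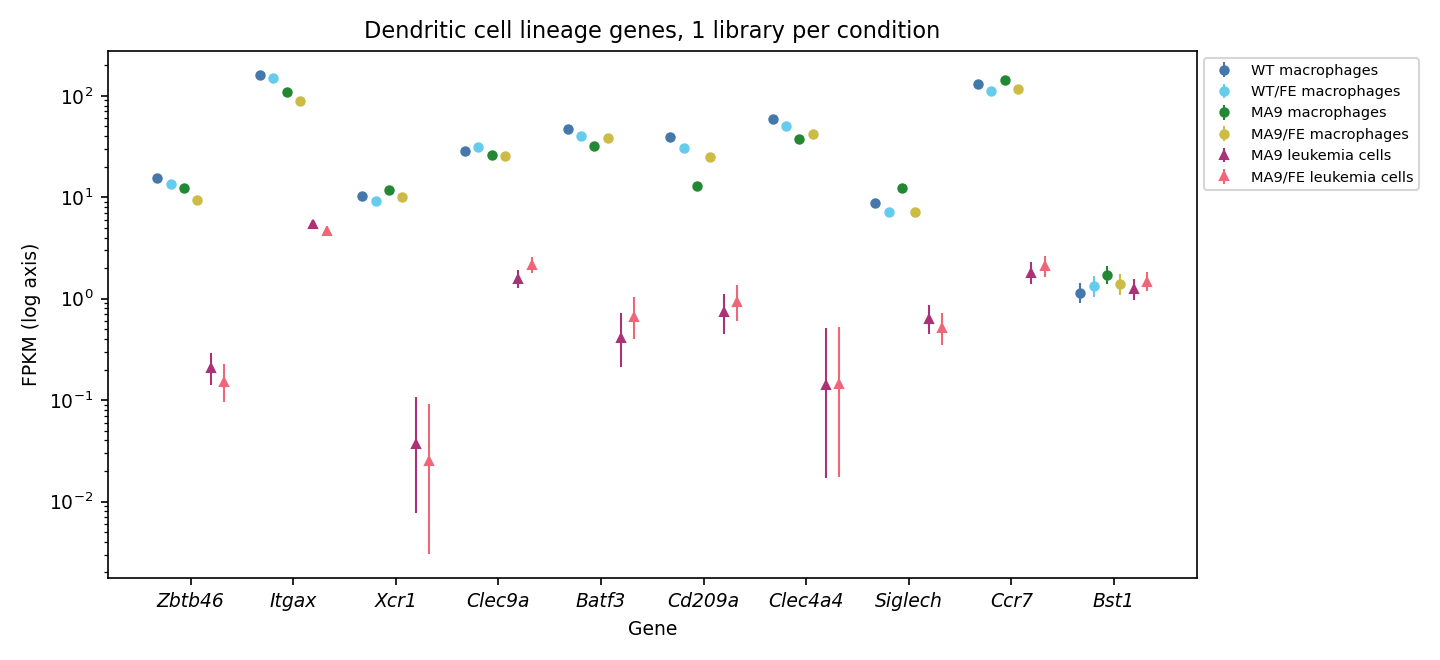
FPKM of the 10 DC lineage genes on a log axis in each library, with circles for macrophages, triangles for leukemia cells and bars for 95% counting intervals, which are smaller than the symbol where not seen. For 9 genes the macrophage circles sit above both leukemia triangles, from 7.07 FPKM for Siglech upwards, and for Bst1 all 6 symbols lie between 1.14 and 1.70 FPKM.

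Macrophages of MA9 mice were compared with those of WT mice to ask what leukemia went along with in the absence of iron. Cd209a was 3.01 times lower in MA9 (2.67 to 3.40), a log2 fold of -1.52 on the log2(FPKM + 1) scale after scaling by trimmed mean of M values (TMM). It was 1 of 10 members, and the only one, with a fold of at least 2, where 4.70% of all 16926 genes compared passed. Below WT but within the fold were Clec4a4 with a ratio of 0.645 (0.577 to 0.720), Batf3 with 0.690 (0.633 to 0.750), Itgax with 0.693 (0.675 to 0.711), Zbtb46 with 0.817 (0.769 to 0.869) and Clec9a with 0.919 (0.858 to 0.985). Above WT were Siglech with 1.44 (1.29 to 1.61), Bst1 with 1.5 (1.10 to 2.06), Xcr1 with 1.14 (1.04 to 1.26) and Ccr7 with 1.11 (1.06 to 1.15). The median log2 fold was -0.19 over the 10 members and -0.0030 over all genes, with 4 members above 0 and 6 below.

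The same contrast between mice with iron gave 0 of 10 members past the fold, against 4.57% of 16571 genes. Itgax was again lower, with a ratio of 0.604 in MA9/FE over WT/FE (0.587 to 0.623), and so was Zbtb46 with 0.708 (0.659 to 0.760). Cd209a had a ratio of 0.820 (0.738 to 0.911), Clec4a4 of 0.853 (0.759 to 0.958) and Clec9a of 0.821 (0.764 to 0.882). For Batf3 (0.972, 0.890 to 1.06), Siglech (1.02, 0.888 to 1.18), Xcr1 (1.11, 0.995 to 1.23) and Bst1 (1.06, 0.758 to 1.48) the interval included 1. The median log2 fold was -0.13 over the members and 0.014 over all genes. With a trend on gene length removed, some log2 folds of this contrast moved. Cd209a went from -0.28 to -0.47, Clec4a4 from -0.22 to -0.44 and Batf3 from -0.041 to -0.23. Ccr7 went from 0.10 to -0.060, and Zbtb46 from -0.46 to -0.32. By these ratios Itgax, Zbtb46, Cd209a, Clec4a4 and Clec9a were lower in leukemic mice with iron and without it, with intervals below 1. The Siglech level was higher in leukemic mice only in the pair without iron, and the difference between the pairs was not tested.

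Iron was compared with PBS in both kinds of mice. In WT/FE over WT macrophages 0 of 10 members passed the fold, against 1.27% of 16754 genes, and 8 of 10 were below 0 on the log2 scale with a median of -0.21, against -0.014 over all genes. Cd209a had the lowest ratio, 0.782 (0.715 to 0.855), followed by Siglech with 0.811 (0.713 to 0.923), and Clec9a was above 1 with 1.09 (1.02 to 1.17). In MA9/FE over MA9 macrophages 0 of 10 passed as well, against 2.46% of 16512 genes, with a median of -0.16 against 0.013 over all genes. Cd209a came nearest, with a ratio of 1.98 (1.73 to 2.26) and a log2 fold of 0.93, and Siglech lay on the other side with 0.590 (0.520 to 0.668). Batf3 had 1.22 (1.11 to 1.33) and Clec4a4 1.15 (1.01 to 1.30), while Zbtb46 had 0.777 (0.723 to 0.836), Itgax 0.830 (0.804 to 0.857), Ccr7 0.842 (0.806 to 0.879) and Clec9a 1.0 (0.929 to 1.08). Cd209a, Batf3 and Clec4a4 were thus lower with iron in non-leukemic mice and higher with iron in leukemic mice. Part of this depended on gene length. With a trend on length removed, the log2 folds of MA9/FE over MA9 fell from 0.93 to 0.77 for Cd209a. They fell from 0.27 to 0.12 for Batf3 and from 0.19 to 0.035 for Clec4a4. Xcr1 had nearly the same ratio in both, 0.894 (0.809 to 0.989) and 0.885 (0.801 to 0.978). These comparisons share libraries with those of leukemia, so they are other views of the same 4 values per gene.

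**Figure D2:**
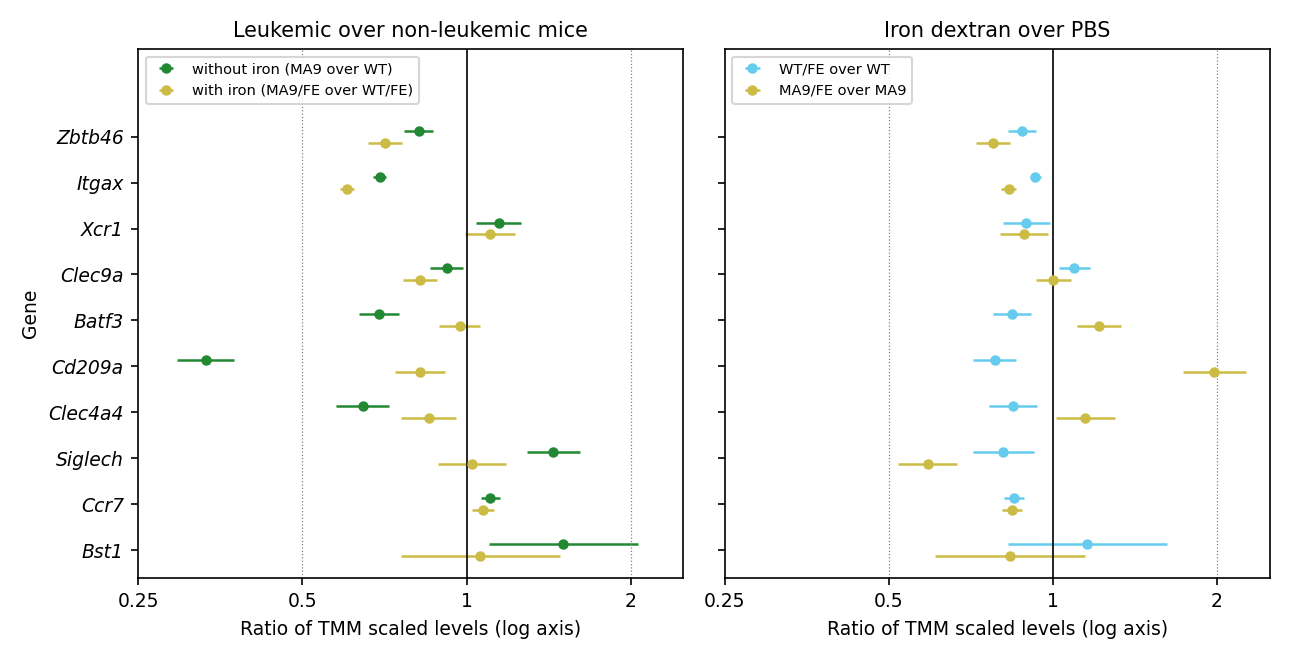
Ratio of TMM scaled levels between macrophage libraries for each DC lineage gene on a log axis, with leukemic over non-leukemic mice on the left and iron dextran over PBS on the right, bars for 95% counting intervals, a solid line at no difference and dotted lines at a fold of 2. The Cd209a point of MA9 over WT, at 0.332, is the only point past a dotted line, and its point of MA9/FE over MA9 lies at 1.98.

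An additive fit of leukemia and iron over the 4 macrophage libraries with limma, which takes the interaction of both as the spread between mice, called 0 of 10 members for leukemia at a Benjamini-Hochberg adjusted p of 0.05 over 16268 genes, of which 4.94% were called. At an unadjusted limma p under 0.05 there were 2 of 10 members, and 2818 of all 16268 genes, so this count is near the background. Cd209a had a log2 change of -0.89 with leukemia (SE 0.26, limma adjusted p = 0.0729), and its adjusted p ranged from 0.0356 to 0.552 over the alternatives. It was lower in leukemic mice in both pairs. Itgax had a log2 change of -0.62 (SE 0.27, limma adjusted p = 0.268) and was lower in both pairs. For Zbtb46 the change was -0.36 (limma adjusted p = 0.366), also lower in both pairs. For iron the fit called 0 of 10 members, against 0.209% of all genes. At an unadjusted limma p under 0.05 there was 1 of 10 members, Siglech, and 800 of 16268 genes. Siglech had a log2 change of -0.49 (SE 0.21, limma adjusted p = 0.925) and was lower with iron in both pairs. The interaction itself could not be tested, since this fit uses it as the error.

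Within a library, the levels of 2 genes can be compared without scaling between libraries, and the cDC1 gene Xcr1 was taken as the reference after its values were seen. A trend on gene length was not removed from these ratios. Exon lengths were 4453 bases for Xcr1, 1583 for Cd209a, 1597 for Batf3 and 776 for Clec4a4. Cd209a had 3.78 times the FPKM of Xcr1 in WT (3.47 to 4.13), 3.31 times in WT/FE (2.99 to 3.67), 1.10 times in MA9 (0.967 to 1.24) and 2.45 times in MA9/FE macrophages (2.2 to 2.74). The cDC2 gene was thus close to the cDC1 gene in MA9 macrophages alone. Clec4a4 had 5.75, 5.44, 3.24 and 4.2 times the FPKM of Xcr1, Batf3 4.56, 4.30, 2.75 and 3.78 times, and Clec9a 2.79, 3.41, 2.24 and 2.53 times. Each was lowest in MA9 macrophages, where Xcr1 itself was highest. For Clec9a the MA9 interval (2.06 to 2.44) overlapped that of MA9/FE (2.31 to 2.78), and its own FPKM was lowest in MA9/FE. Cd209a, Clec4a4, Batf3 and Clec9a were all lower in leukemic than in non-leukemic mice, for Batf3 and Clec9a with intervals that overlapped between the groups. Itgax was at 15.4 and 16.0 times in the non-leukemic and at 9.33 and 8.75 times in the leukemic mice, and Zbtb46 at 1.49 and 1.46 times against 1.06 and 0.933 times. Ccr7 stayed between 11.6 and 12.6 times the FPKM of Xcr1 in the 4 libraries. Siglech over Xcr1 was 0.843 in WT, 0.765 in WT/FE, 1.06 in MA9 mice and 0.707 in MA9/FE mice.

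**Figure D3:**
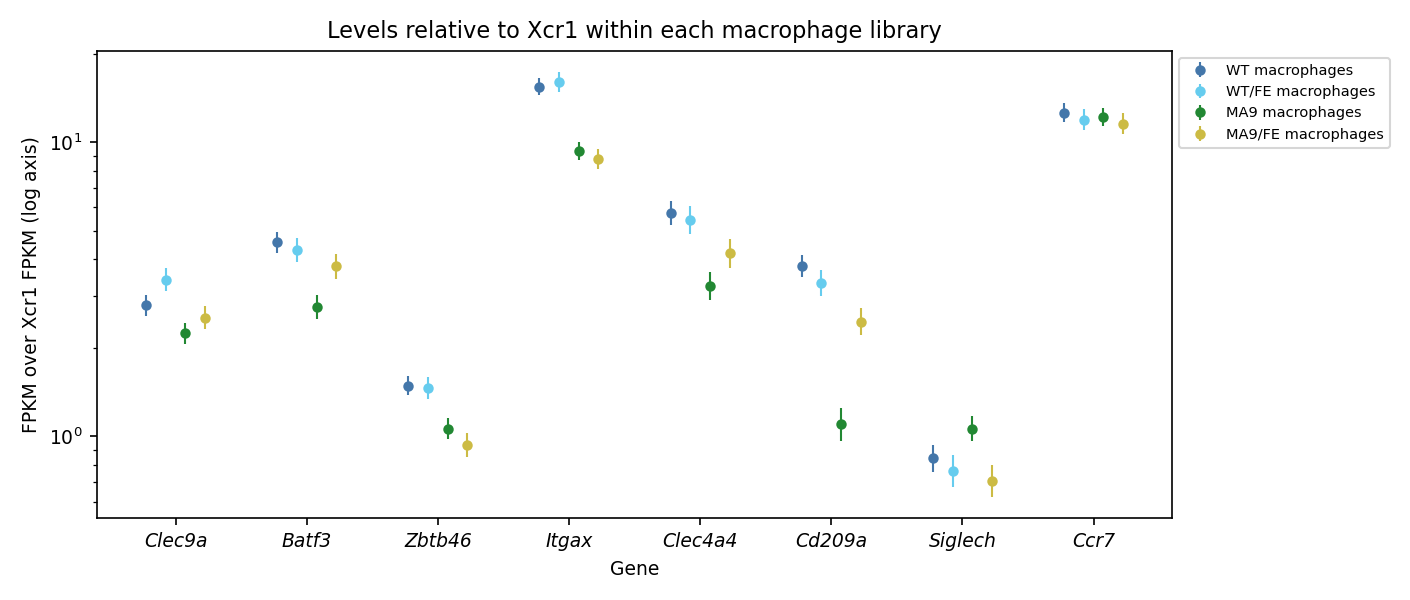
FPKM of 8 DC lineage genes divided by the FPKM of Xcr1 in the same macrophage library, on a log axis, with bars for 95% counting intervals. Itgax, Zbtb46, Cd209a and Clec4a4 separate leukemic from non-leukemic mice. Batf3 and Clec9a are also lower in leukemic mice, with intervals that overlap between the groups. Cd209a, Clec4a4, Batf3 and Clec9a are lowest in MA9 macrophages, for Clec9a with an interval that overlaps that of MA9/FE. Ccr7 lies between 11.6 and 12.6 in all 4 libraries.

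Leukemia cells carried little of the DC lineage genes. In MA9 mice 9 of 10 members were lower in leukemia cells than in macrophages by a fold of at least 2, where 20.0% of 17044 genes passed in either direction and 12.6% were lower in leukemia cells. In MA9/FE mice 9 of 10 were lower too, where 22.8% of 16842 genes passed and 13.2% were lower. The median log2 fold of the members was -3.56 in MA9 and -3.61 in MA9/FE mice, against -0.013 and -0.027 over all genes. Ccr7 was 80.2 times lower in MA9 leukemia cells (62.8 to 104) and 56.7 times lower in MA9/FE leukemia cells (45.1 to 72.4). Batf3 was 79.4 times lower (45.2 to 154) and 58.3 times lower (37.1 to 97.2), and Zbtb46 61.2 times lower (43.2 to 89.8) and 63.3 times lower (42.0 to 100.3). Smaller ratios were found for Itgax (20.4 and 19.2 times lower), Siglech (20.0 and 14.2), Cd209a (17.9 and 27.4) and Clec9a (17.0 and 12.1). For Xcr1 the ratios of 322 (109.8 to 1564) and 409 (113 to 3381), and for Clec4a4 those of 273 (75.1 to 2257) and 299 (82.3 to 2474), rest on 2 or 3 reads in the leukemia cells. Bst1 was the exception, with a ratio of leukemia cells over macrophages of 0.715 (0.522 to 0.978) in MA9 and 1.04 (0.753 to 1.44) in MA9/FE mice. B cell markers, which summed to 24.9 and 23.3 FPKM in leukemia cells, were also far lower there than in the macrophage libraries, and their part in these ratios was not tested.

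Among the leukemia cells themselves, 8 of 10 members had at least 10 reads in one of the pair, and 0 of these 8 passed the fold with iron, against 0.863% of 15415 genes. Clec9a had a ratio of 1.36 in MA9/FE over MA9 leukemia cells (1.03 to 1.80), and Itgax of 0.859 (0.750 to 0.983). The intervals of the other members included 1, and those of Batf3 (1.61, 0.742 to 3.64) and Cd209a (1.26, 0.681 to 2.35) were wide, from 12 and 19 reads and from 21 and 26 reads. A difference smaller than these intervals was not detectable at this depth.

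**Figure D4:**
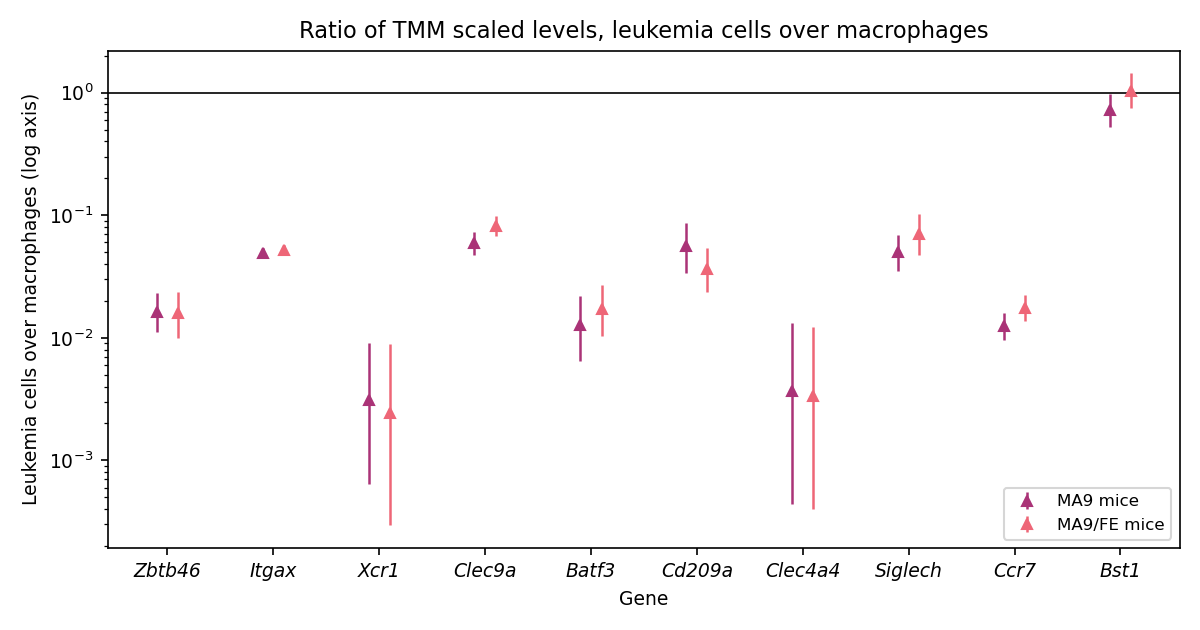
Ratio of TMM scaled levels of leukemia cells over macrophages of the same kind of mice for each DC lineage gene on a log axis, with bars for 95% counting intervals and a line at no difference. 9 genes lie at 0.0823 or lower in both kinds of mice, and Bst1 lies at 0.715 and 1.04.

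Other genes of the DC branches, from lists of textbook genes, were set beside the members. Of 16 genes of the cDC1 program, 0 passed the fold in MA9 over WT, in MA9/FE over WT/FE, in WT/FE over WT or in MA9/FE over MA9 macrophages, where 4.70%, 4.57%, 1.27% and 2.46% of all genes passed, so that a count of 0 in a list of this size is near the background. Wdfy4, which cDC1 need to cross-present, had macrophage levels of 111 FPKM in WT, 110.8 in WT/FE, 93.7 in MA9 mice and 66.3 in MA9/FE mice. Irf8, a transcription factor that cDC1 and pDC need, had 84.6, 94.2, 94.1 and 91.8 FPKM in the 4 macrophage libraries, in the same order, and with 89.4 and 115.8 FPKM it was as high in leukemia cells. Id2, which cDC1 need to form, had 95.4, 96.6, 69.1 and 90.3 FPKM in the macrophages and 8.63 and 13.9 FPKM in the leukemia cells. Of 15 genes of the cDC2 program 0 passed in the same 4 comparisons, with 7 above and 8 below 0 in MA9 over WT and a median log2 fold of -0.34 there. Sirpa, the CD47 receptor of cDC2 and macrophages, had 109, 126, 85.4 and 102.6 FPKM, and Relb, an NF-kB subunit, 102.4, 87.0, 77.4 and 66.4 FPKM. In the leukemia cells 13 of 16 cDC1 genes and 8 of 15 cDC2 genes were lower by the fold than in macrophages in MA9 mice, and 12 and 8 in MA9/FE mice, where 12.6% and 13.2% of all genes were. Higher by the fold were 1 cDC1 gene in each kind of mice, and 2 cDC2 genes in MA9 and 3 in MA9/FE mice. Over all genes 1251 of 17044 were higher in MA9 and 1616 of 16842 in MA9/FE mice. Irf8 and Nfil3 (23.8 FPKM in MA9 leukemia cells) were among the cDC1 genes that were not lower in leukemia cells.

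Of 16 genes of the pDC program, 2 were higher by the fold in MA9 over WT macrophages, Ly6c2 with a log2 fold of 2.59 and Smim5 with 1.0, where 4.70% of all genes passed. In that comparison 11 of 16 were above 0 with a median log2 fold of 0.16. In MA9/FE over MA9 macrophages 11 of 16 were below 0 with a median of -0.20. Siglech had the same directions, but both comparisons share the MA9 library. The directions were not particular to this list, since 12 of 12 neutrophil markers were above 0 in the first and 11 of 12 below 0 in the second. In MA9/FE over WT/FE only Ly6c2 passed, with 2.31, where 4.57% of all genes passed. It is a surface protein that monocytes and the leukemia cells also carry (524 FPKM in MA9 leukemia cells). Spib, a factor of pDC and B cells, had 179.6, 174, 129.9 and 148 FPKM in macrophages, and Ly6d, also of B cells, 449.7, 363, 263 and 509 FPKM. Both are among the genes with the highest levels in the list, and unlike Siglech neither was highest in MA9 macrophages. Of the mature and migratory DC genes, which belong with Ccr7, 1 of 17 passed in MA9 over WT, Il12b, the gene of the IL-12 p40 subunit, with a log2 fold of 1.64 (2.63 and 10.2 FPKM). In MA9/FE over MA9 macrophages 1 of 16 passed, Fscn1, the actin bundling protein of mature DCs, which was lower with a log2 fold of -1.01 (70.2 and 33.5 FPKM). A count of 1 in lists of this size is near the share over all genes, 4.70% and 2.46% in these comparisons. Of 13 growth factor receptors and progenitor factors, 0 passed in any macrophage comparison, where 1.27% to 4.70% of all genes passed. Flt3, the receptor for the growth factor of DCs, had 42.4, 42.6, 32.5 and 29.3 FPKM in the macrophages and 12.7 and 22.0 FPKM in the leukemia cells, chosen after its values were seen.

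Markers of other cells moved between the same libraries. The B cell sum was 2436 FPKM for WT macrophages, 2290.3 with iron (WT/FE), 1379.9 for MA9 and 2369 with iron (MA9/FE), so it was lowest in the library in which Cd209a was lowest. The plasma cell markers (7 genes) went from 1069 and 1042 FPKM in non-leukemic to 2130.2 and 2606 FPKM in leukemic mice. Those are the mice in which Itgax, Zbtb46, Cd209a, Clec4a4 and Clec9a were lower. Erythroid markers (8 genes) summed to 93.8 FPKM in WT, 201 in WT/FE, 278 in MA9 mice and 488 in MA9/FE mice, the reverse of the order of Itgax and Zbtb46, and 8 of 8 were higher by the fold in MA9 over WT. Monocyte markers (10 genes) summed to 242, 296, 408 and 378 FPKM. The macrophage sum was 549.7 and 543 FPKM without iron (WT, MA9) and 921 and 1203 FPKM with it. The sum of the 10 members went from 498 in WT over 442 in WT/FE and 398 in MA9 to 363 FPKM in MA9/FE. Itgax and Ccr7 had the highest levels in that sum, and of the members only Itgax and Zbtb46 followed its order. Whether these changes in other cells had a part in the levels of the members was not tested.

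**Figure D5:**
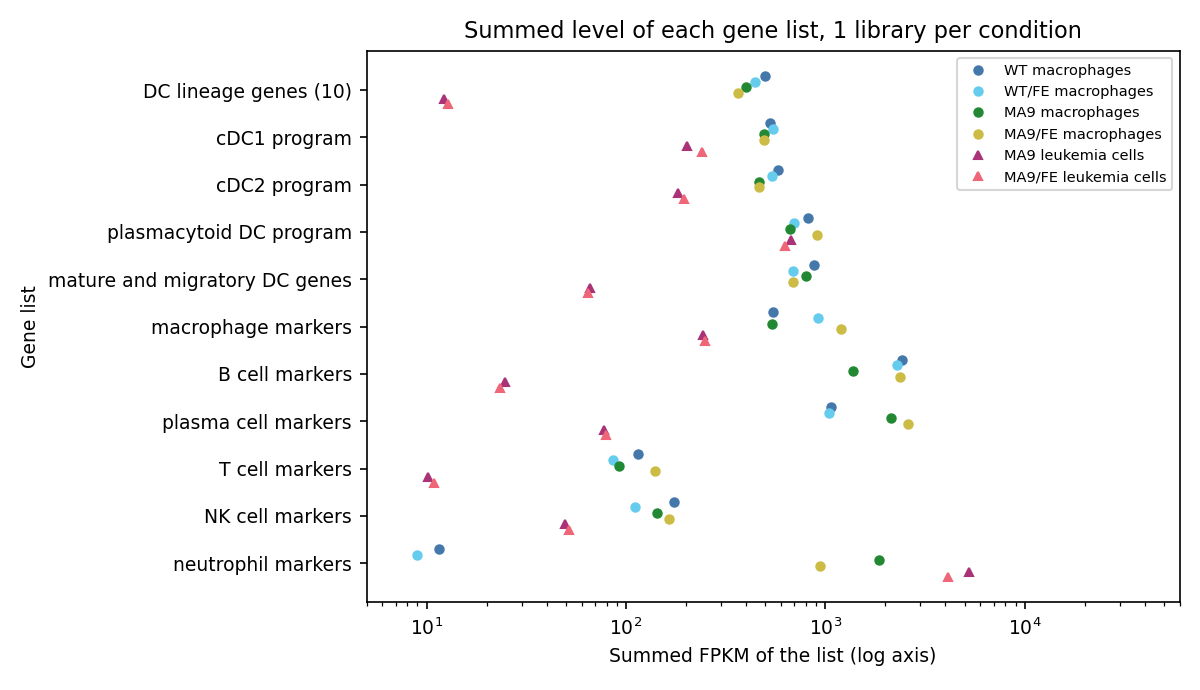
Summed FPKM of the 10 DC lineage genes and of lists of marker genes in each library on a log axis, with circles for macrophages and triangles for leukemia cells. The DC lineage genes lie between 363 and 498 FPKM in macrophages and at 12.3 and 12.8 FPKM in leukemia cells, the B cell sum dips in MA9 macrophages, and the macrophage sum is higher in both libraries with iron.

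The genes whose log2(FPKM + 1) ran most alike to 9 of the members over the 6 libraries were named by Pearson's r, as a description. All members but Bst1 share the step between macrophages and leukemia cells, so r was high for many genes: for Xcr1, 326 of 12053 genes had r of at least 0.99. Nearest to Xcr1 were Serpinb6b, Ccr7 and Pacsin1, and Ccr7 in turn was nearest to Serpinb6b, Xcr1 and Pacsin1. Siglech had only 48 such genes and was nearest to Sla2, Ccr9, a homing receptor of pDC, and Prnp. Zbtb46 was nearest to Prr5l, Tmem123 and Carmil1, Itgax to Dbn1, Tmem123 and Vav2, and Cd209a to Recql5, Cyhr1 and Idnk. Batf3 was nearest to Swap70, Marcks and Ighv9-4, and Clec4a4 to Slamf8, 2010309G21Rik and Swap70. Bst1, without the step, had no gene at 0.99, and its nearest were Gk with 0.976, Neu3 with 0.972 and Mtmr14 with 0.956.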

How the data were processed

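RNA of 4 macrophage and 2 leukemia cell libraries was sequenced on an Illumina NovaSeq by a service provider. The submitters' processing notes name mm10, Bowtie2 2.2.5 and RSEM, and the annotation and the counting rule are not given in the sources used here. The deposited table, made by the authors, gives FPKM per Ensembl gene (54532 genes), and 54495 had an exon length and a symbol in GENCODE M21 (GRCm38). FPKM times exon length came to whole multiples of one step, to within 0.05 reads, for 96.8% to 97.0% of nonzero values per library, which gave reads and depth. Pairs of libraries were scaled by TMM (coded by hand) and compared as log2(FPKM + 1), which understates changes of low genes, for genes with at least 10 reads in one of the pair. A fold of at least 2 was counted without a test. Ratios are of TMM scaled levels with exact conditional binomial intervals. The 4 macrophage libraries were fitted with limma 3.58.1 in R 4.3.3 (genes with at least 10 reads in 2 libraries, Benjamini-Hochberg over all genes). Python 3.11.15, numpy 2.4.6, pandas 2.3.3, scipy 1.17.1 and matplotlib 3.10.9 were used, and the steps were tested on simulated data. The alternatives were other scalings, pseudocounts and minimum reads, a trend on length removed, folds of reads, and limma without a variance trend, the last added after seeing the data. The members and lists were chosen with earlier results of these data known. From each list the genes with the highest mean level in macrophages, or past the fold with at least 100 reads, were named. The genes most alike to Clec9a are not reported here.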

Additional observations from a re-analysis of the deposited data

Results flagged for a closer look

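The iron ratio of 3 members ran in opposite directions in the macrophages of non-leukemic and leukemic mice, with 1 library per condition. Cd209a had a log2 fold of -0.34 in WT/FE over WT and of 0.93 in MA9/FE over MA9 macrophages. Batf3 had -0.24 and 0.27, and Clec4a4 had -0.24 and 0.19. With a trend on length removed the signs stayed, but the sizes shrank. Cd209a then had -0.28 and 0.77, Batf3 -0.18 and 0.12, and Clec4a4 -0.15 and 0.035. The difference was not tested, since the only fit over these libraries uses it as the error. For all 3 genes MA9 had the lowest level of the 4 macrophage libraries.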

How the results depend on the processing

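With 1 library per condition the spread between mice is unknown, and depth limits the members with few reads, Xcr1 and Clec4a4 in leukemia cells and Bst1 in every library. No paired analysis was possible because each condition has 1 library and the labels give no replicate numbers. No library could be left out of the limma fit, since no residual would be left. The number of members past the fold was the same in all 7 comparisons under each alternative. In the limma fit of leukemia, 1 member (Cd209a) was called in place of 0 with scaling by total reads (adjusted p = 0.0486), with TMM without hemoglobin and immunoglobulin genes (adjusted p = 0.0365) and with a pseudocount of 0.1 (adjusted p = 0.0356), and the cause was not tested. The log2 change of Batf3 with iron was 0.0050 and reversed to -0.0083 with scaling by the median of ratios. Over all genes that fit called 804 for leukemia, against 363 without a variance trend and 1 with no minimum of reads. For iron it called 34, against 62 with TMM without hemoglobin and immunoglobulin genes, 68 with a pseudocount of 0.1, 2 without a variance trend and 0 with no minimum. Of 660 values of single members under the alternatives, 8 changed sign, all in 5 results with a log2 size of at most 0.0996 and none past the fold: besides Batf3, Clec9a in MA9/FE over MA9 (0.0020, to -0.033 with total reads, -0.032 with the median of ratios and -0.065 with the trend on length removed), and in MA9/FE over WT/FE Siglech (0.029, to -0.012 with the median of ratios and -0.049 with the trend removed) and, with the trend removed, Bst1 (0.048 to -0.033) and Ccr7 (0.10 to -0.060). Of them 15 moved with a pseudocount of 0.1 and 16 with folds of reads, all further below 0 in leukemia cells against macrophages, 8 with the trend on length removed and 1 with the median of ratios.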
